A study of Mus musculus with 24 samples.

Results

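The genes described here are 10 members of the hypoxia-inducible factor (HIF) pathway in the mouse distal jejunum. They were taken by symbol and are *Hif1a*, *Epas1*, *Egln1*, *Egln3*, *Vegfa*, *Adm*, *Bnip3*, *Ndrg1*, *Car9* and *Ankrd37*, and each of the 10 symbols matched 1 row among the 56691 genes of the count table. Poly(A) RNA of 24 mice was sequenced, 3 in each of 8 groups given by sex (male or female), genotype (wild type or *Ptk6*-/-, a germline disruption of the gene for the intracellular tyrosine kinase PTK6) and water. Control mice drank regular water, and treated mice drank 100 mM succinate for 7 days. The mice were 9 to 11 weeks old when the experiment ended, came from different litters of 1 colony, and gave 1 library each of whole jejunal tissue.

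In this pathway the alpha subunits, encoded by *Hif1a* and *Epas1*, are made continuously. With oxygen present they are hydroxylated on prolines by the EGLN enzymes and then degraded through the von Hippel-Lindau protein. The hydroxylases consume oxoglutarate and release succinate, and accumulated succinate can slow them. This is the reason to ask whether genes that HIF switches on differ between mice that drank succinate and mice that drank water. *Egln1* encodes the main hydroxylase at rest, and *Egln3* encodes a further one that is itself a classical HIF target. *Vegfa* and *Adm* encode secreted factors that act on vessels, *Bnip3* a mitochondrial protein of mitophagy, *Ndrg1* a stress-responsive protein of epithelial differentiation, *Car9* a carbonic anhydrase at the cell surface, and *Ankrd37* an ankyrin repeat protein. In the gut, HIF acts mainly in the epithelium, on barrier, iron and energy genes. The subunits and hydroxylases are controlled at the protein level, which these RNA libraries do not measure.

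Total counts per library ranged from 8080321 to 52824743. *Ptk6* had 7 to 61 counts in the 12 *Ptk6*-/- libraries and 284 to 2405 in the 12 wild type libraries, without overlap. There were 3 libraries that stood apart. Ribosomal 18S RNA took 51.2% of the counts in wild type male control replicate 1 and 29.7% in *Ptk6*-/- male succinate replicate 1, which is also the library with the lowest total. Wild type female succinate replicate 2 held heart transcripts. Its summed level of 7 heart genes was 17371 CPM (counts scaled to a common library total), against 33.7 and 93.0 in the other libraries of its group and at most 216 in the rest, and *Myh6* alone stood at 9018 CPM. Low levels of 7 lung genes were also uneven, with a summed 7.70 to 19.7 CPM in the 6 *Ptk6*-/- females and 18.1 in wild type female succinate replicate 3, against 0 to 4.15 in the rest, and their part in the results was not tested. Levels below are CPM after scaling by the trimmed mean of M-values (TMM), unless FPKM, which also divides by transcript length, is named. Fold changes come from edgeR's quasi-likelihood test on the counts, on the log2 scale with their standard error (SE). A gene was called when its adjusted p (Benjamini-Hochberg, over all genes tested) was under 0.05 and its level differed at least 2-fold.

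The starts of 8 of the 10 genes were found in the RefSeq promoter table (GRCm38.p6, 250 bases before to 50 after the start site, 2 windows for *Vegfa*), and no window was found for *Epas1* or *Ndrg1*. HIF binds a core of 5 letters, which was searched as ACGTG and as GCGTG on both strands. ACGTG was in 7 of the 9 windows, from 7 of the 8 genes, and in 19.6% of all 32851 windows of the table. For *Vegfa* the matches were in the window at chr17:46025114-46025413, and the upstream window at chr17:46032328-46032627 held none. GCGTG was in 32.4% of all windows, and one or the other in 43.8% of all windows and in 8 of the 9 windows here. The promoters of *Egln3*, *Ankrd37* and *Egln1* are shown because these 3 genes had the smallest unadjusted p with succinate among the 10, and that of *Car9* because its level hardly differed between groups. Capitals mark every match, and CACGT and CACGC are the same letters read on the other strand.
Egln3, chr12:54203825-54204124, minus strand: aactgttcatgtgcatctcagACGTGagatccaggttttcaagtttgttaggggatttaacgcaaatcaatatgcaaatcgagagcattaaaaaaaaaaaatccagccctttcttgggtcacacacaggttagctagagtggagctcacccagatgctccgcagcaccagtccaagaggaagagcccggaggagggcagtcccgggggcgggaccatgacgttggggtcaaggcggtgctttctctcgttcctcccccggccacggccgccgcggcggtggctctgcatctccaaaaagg
Ankrd37, chr8:45999801-46000100, minus strand: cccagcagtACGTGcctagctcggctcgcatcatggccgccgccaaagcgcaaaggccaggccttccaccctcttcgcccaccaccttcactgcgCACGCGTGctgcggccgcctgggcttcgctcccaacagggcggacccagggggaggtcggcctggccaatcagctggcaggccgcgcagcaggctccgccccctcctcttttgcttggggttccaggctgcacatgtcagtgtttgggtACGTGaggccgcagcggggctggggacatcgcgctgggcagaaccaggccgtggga
Egln1, chr8:124949205-124949504, minus strand: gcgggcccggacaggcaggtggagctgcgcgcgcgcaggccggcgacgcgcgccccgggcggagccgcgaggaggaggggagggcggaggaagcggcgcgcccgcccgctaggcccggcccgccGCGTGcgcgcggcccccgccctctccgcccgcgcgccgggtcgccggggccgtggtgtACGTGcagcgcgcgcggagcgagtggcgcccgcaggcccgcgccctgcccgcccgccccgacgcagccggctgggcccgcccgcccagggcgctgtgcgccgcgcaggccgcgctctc
Car9, chr4:43506776-43507075, plus strand: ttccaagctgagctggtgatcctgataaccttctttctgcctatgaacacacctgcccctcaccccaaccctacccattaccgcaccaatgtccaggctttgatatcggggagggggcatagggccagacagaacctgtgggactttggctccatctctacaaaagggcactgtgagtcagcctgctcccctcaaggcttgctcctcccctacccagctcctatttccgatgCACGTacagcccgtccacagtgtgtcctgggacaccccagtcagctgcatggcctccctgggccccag
The single match in *Egln3* began 229 bases before the start site, and the one in *Car9* began 18 bases before it. *Ankrd37* held 4 matches, of which GCGTG and its reverse overlap. A match is a description of the letters, and no binding was measured.

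By median level per unit of length, *Vegfa* was first of the 10 genes and *Adm* last. The median FPKM over 24 libraries was 26.3 for *Vegfa* (5.28 to 45.1), 13.0 for *Egln3* (1.21 to 99.9), 12.6 for *Car9* (1.72 to 16.3) and 9.92 for *Egln1* (2.28 to 33.8). It was 8.32 for *Ndrg1*, 4.85 for *Epas1*, 3.55 for *Hif1a*, 3.33 for *Ankrd37*, 2.46 for *Bnip3* and 1.30 for *Adm*. Neighbours in this order often changed places. *Vegfa* lay above *Egln3* in 17 of 24 libraries and in the mean of 5 of 8 groups, and over all 24 libraries its mean FPKM of 23.3 was below the 24.8 of *Egln3*. *Hif1a* lay above *Ankrd37* in 11 of 24 libraries and *Egln3* above *Car9* in 14, so the order of these pairs varied between libraries. *Egln3* lay above *Car9* in the mean of 5 of 8 groups. With succinate this was without overlap in females of both genotypes (39.8 to 99.9 against 8.17 to 16.3). It was also without overlap in wild type males with succinate (16.8 to 40.2 against 12.6 to 13.7). *Bnip3* lay above *Adm* in 22 libraries and in the mean of all 8 groups. FPKM was not adjusted for composition, and the lowest FPKM of 9 of the 10 genes fell in *Ptk6*-/- male succinate replicate 1. The exception was *Ankrd37*, which was lowest in *Ptk6*-/- male control replicate 1 (0.885).

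**Figure D1:**
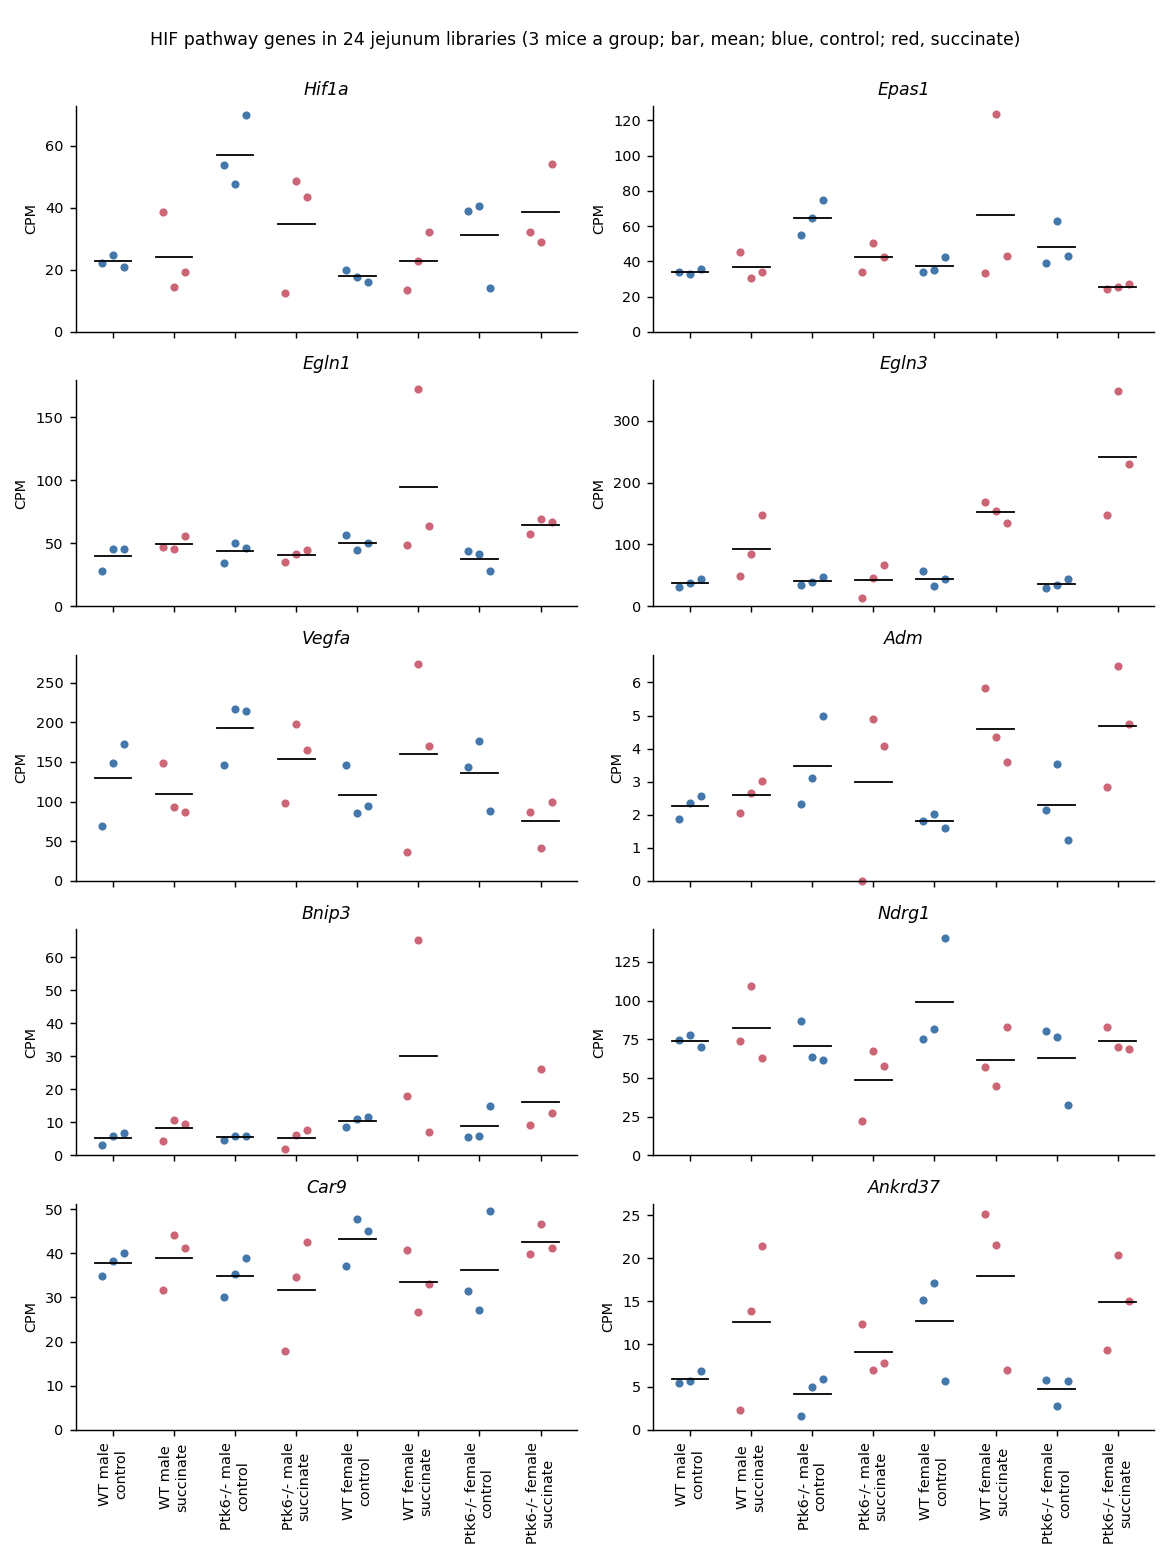
CPM (y axes, from 0) of the 10 genes in 24 libraries, by group (x axis). Each point is 1 mouse, the bar is the mean of 3, blue is control and red is succinate. *Egln3* after succinate stood at 134 to 349 in females of both genotypes, against 29.6 to 56.6 in control females, and 1 library (wild type female succinate replicate 2) is the highest for *Epas1*, *Egln1*, *Vegfa* and *Bnip3*.

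*Egln3*, the HIF-induced prolyl hydroxylase, was the 1 gene of the 10 called with succinate in the average over both sexes and genotypes, and it did not differ beyond its spread in *Ptk6*-/- males. It lies at chromosome 12, 54225767 to 54250646 on the minus strand, in the deposited GRCm39 coordinates. In *Ptk6*-/- females the control libraries stood at 29.6, 34.9 and 44.0 CPM and the succinate libraries at 148, 349 and 229. In wild type females the control libraries stood at 56.6, 33.3 and 44.8 CPM and the succinate libraries at 168, 154 and 134. All 6 succinate-treated females therefore lay above all 6 control females. In wild type males the values were 32.0, 37.6 and 43.4 CPM with water and 48.5, 83.8 and 147 with succinate, again without overlap. In *Ptk6*-/- males they were 33.7, 40.0 and 47.8 CPM with water and 14.0, 45.1 and 66.9 with succinate, and the groups overlapped. The lowest of these is the library with the lowest total and much 18S RNA.

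Averaged over the 4 sex and genotype pairs, *Egln3* was 2.77-fold higher with succinate (log2 fold change 1.47, SE 0.22, adjusted p = 0.000717, edgeR). It lay above its own control mean in 11 of 12 succinate libraries. Among all 21694 genes tested, 0.747% were called in this comparison, 0.641% with a higher level. The call held when each of the 24 libraries was left out in turn (log2 fold change 1.35 to 1.56) and without the 3 libraries that stood apart (1.55, adjusted p = 0.000454). It was lost in limma on log2(FPKM + 0.1) (1.33, adjusted p = 0.0543) and on log2(FPKM + 1) with no filter on low values (1.31, adjusted p = 0.108).

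With edgeR on the 6 libraries of each pair of groups, *Egln3* was not called. The log2 fold change was 2.72 (SE 0.39, adjusted p = 0.105) in *Ptk6*-/- females, 1.78 (SE 0.28, adjusted p = 0.189) in wild type females, 1.31 (SE 0.38, adjusted p = 0.949) in wild type males and 0.07 (SE 0.46, adjusted p = 0.958) in *Ptk6*-/- males. In these 4 comparisons 0.0517%, 0%, 0% and 0% of all genes were called. DESeq2 called *Egln3* in both female comparisons (adjusted p = 5.98e-09 in *Ptk6*-/- and 8.14e-06 in wild type), where it called 433 and 258 of all genes. In *Ptk6*-/- females edgeR also called *Egln3* in 1 fit of all 24 libraries (adjusted p = 0.0046) and with no filter on low counts (adjusted p = 0.0394). In wild type males edgeR called *Egln3* without succinate replicate 1 (1.58, adjusted p = 0.0069), along with 1114 genes in all. The groups of *Egln3* did not overlap in 3 of the 4 pairs, where 21.2%, 13.3% and 8.77% of all genes did not overlap.

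The response of *Egln3* was larger in females by 1.56 on the log2 scale (SE 0.43, unadjusted p = 0.00138), which did not pass over all genes (adjusted p = 0.205, edgeR). DESeq2 gave an adjusted p = 0.0222 for the same difference, and called 207 of all genes where edgeR called 16 (0.0738%). The difference between genotypes in the succinate response was −1.22 (SE 0.65, adjusted p = 0.993) in males and 0.96 (SE 0.45, adjusted p = 0.753) in females, and edgeR called 0% of all genes in either (DESeq2 60 genes in males and 57 in females).

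**Figure D2:**
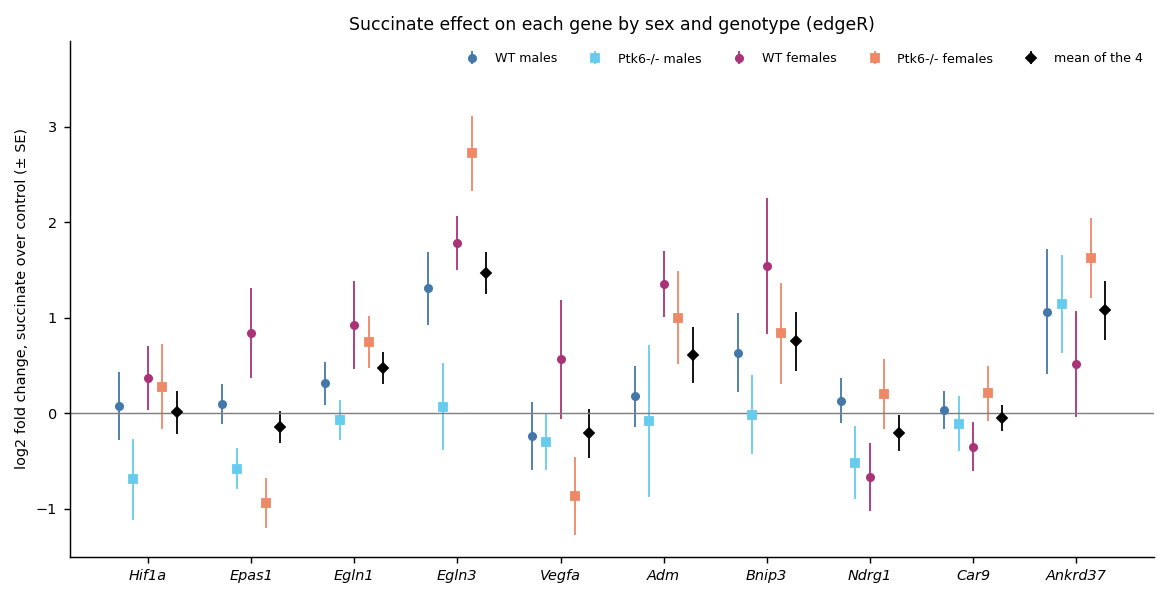
Log2 fold change of succinate over control (y axis, points with SE, edgeR) for the 10 genes (x axis) in the 4 sex and genotype pairs and their mean. The mean for *Egln3* is 1.47 and for *Ankrd37* 1.08, while those of *Hif1a*, *Epas1*, *Vegfa*, *Ndrg1* and *Car9* lie between −0.21 and 0.01.

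Markers of tuft cells, the chemosensory cells that bear the succinate receptor, moved with *Egln3*. The summed CPM of 15 tuft cell genes ranged from 72.4 to 104 in the 12 control libraries. It was 271 to 556 in succinate-treated *Ptk6*-/- females, 183 to 585 in wild type females, 125 to 182 in wild type males and 63.9 to 124 in *Ptk6*-/- males. All 15 of these genes were higher in the averaged succinate effect and 10 were called (median log2 fold change 1.67, against −0.0025 over all genes). Between 10 and 15 of the 15 were detected above 3 counts in each library. In bulk tissue more cells of a type and more RNA per cell cannot be told apart, and the part of these cells in the *Egln3* result was not tested. Other markers moved in some of the same groups. The summed CPM of 12 enterocyte genes was 47385 to 54170 in wild type control females and 27542 to 37037 with succinate, without overlap, and 23175 to 57567 and 18026 to 22254 in *Ptk6*-/- females, while in *Ptk6*-/- males it was 22837 to 35413 with water and 35356 to 55654 with succinate. In the averaged effect 9 of these 12 were lower, 8 of the 12 had an unadjusted p under 0.05 and 0 were called. Of 10 endothelial genes 9 were higher and 1 was called, and of 9 smooth muscle genes 7 were higher and 1 was called (medians 0.22 and 0.27). Of 9 goblet cell genes 6 were higher and 2 were called, of 7 Paneth cell genes 6 were higher and 1 was called, and of 6 B cell genes 6 were higher and 0 were called (2 at an unadjusted p under 0.05). Summed levels did not overlap for 6 proliferating crypt cell genes in *Ptk6*-/- females (280 to 659 CPM with water, 695 to 755 with succinate) for the B cell genes in wild type males (19.8 to 76.3 and 92.0 to 123) and wild type females (14.3 to 24.8 and 25.3 to 79.0), for the lung genes in females of both genotypes and for the heart genes in *Ptk6*-/- males (16.0 to 35.5 and 42.4 to 216). The part of these in the *Egln3* result was not tested either.

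**Figure D3:**
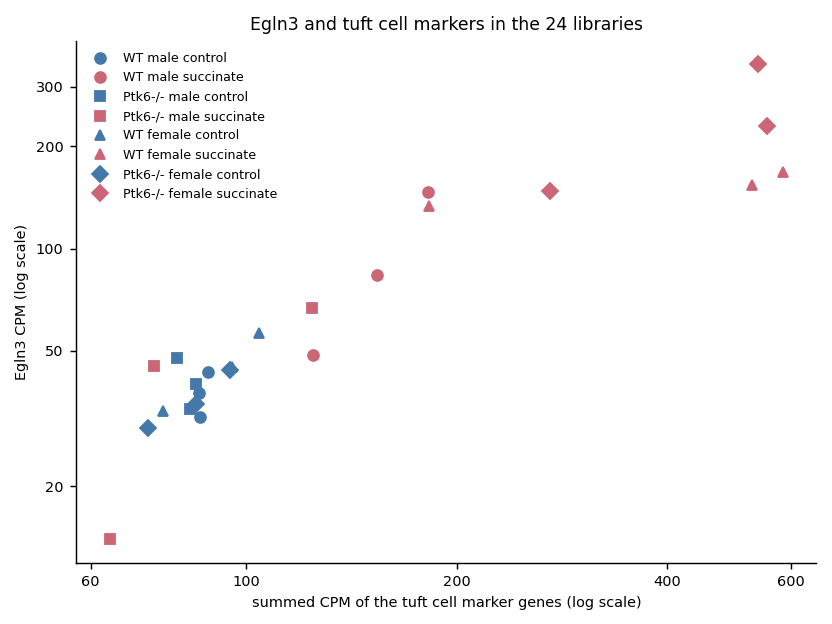
*Egln3* CPM (y axis, log scale) against the summed CPM of 15 tuft cell markers (x axis, log scale) in 24 libraries. Blue points are controls, red points are succinate-treated mice, and the shape gives sex and genotype. The controls sit together at 72.4 to 104 on the x axis, and the highest *Egln3* value is 349.

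*Egln1*, the main hydroxylase at rest, lies at chromosome 8, 125635326 to 125676063, and had smaller differences. In *Ptk6*-/- females it stood at 44.1, 41.7 and 27.7 CPM with water and 57.1, 69.5 and 67.0 with succinate, without overlap (log2 fold change 0.74, SE 0.27, adjusted p = 0.437). In wild type females it stood at 56.3, 44.3 and 50.1 CPM with water and 48.4, 172 and 63.8 with succinate, and the value of 172 belongs to the library with heart transcripts. Without that library the log2 fold change in wild type females went from 0.92 to 0.19. Wild type males stood at 28.3, 45.4 and 45.0 CPM with water and 46.8, 45.8 and 55.6 with succinate, without overlap (0.32, SE 0.23, adjusted p = 0.949), and *Ptk6*-/- males had a log2 fold change of −0.07 (SE 0.21), with overlap. The mean over the 4 pairs was 0.48 (SE 0.17, adjusted p = 0.186), and 0.29 (adjusted p = 0.310) without that library.

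*Ankrd37*, at chromosome 8, 46449939 to 46452904, was the gene nearest to a call after *Egln3*. In *Ptk6*-/- females it stood at 5.79, 2.78 and 5.66 CPM with water and 9.35, 20.4 and 15.0 with succinate. Among *Ptk6*-/- males it stood at 1.61, 4.96 and 5.97 CPM with water and 12.3, 7.03 and 7.81 with succinate. Neither pair of groups overlapped, and *Ptk6*-/- males, where *Egln3* stood at 0.07, are 1 of these pairs (23% of all genes did not overlap there). The 12.3 CPM there comes from 45 counts in the library with the lowest total and much 18S RNA. Its FPKM of 1.80 lay below the control values of 2.57 and 2.85, so the groups overlapped in FPKM, and without it the log2 fold change went from 1.15 to 0.82 in *Ptk6*-/- males. In wild type males 5.42, 5.70 and 6.80 CPM with water compared with 2.36, 13.8 and 21.5 with succinate. In wild type females 15.2, 17.1 and 5.68 CPM with water compared with 25.2, 21.5 and 7.03 with succinate. The averaged log2 fold change was 1.08 (SE 0.31, unadjusted p = 0.00218, adjusted p = 0.107), and 10 of 12 succinate libraries lay above their own control mean. It passed in DESeq2 (adjusted p = 0.0142), in voom with sample quality weights (adjusted p = 0.00773), and in edgeR without wild type male succinate replicate 1 or without wild type female succinate replicate 3 (adjusted p = 0.0178 and 0.0249).

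Neither secreted factor was called with succinate by edgeR, while DESeq2 called *Adm* in wild type females. *Adm*, encoding the vasodilator adrenomedullin, was low throughout. In wild type females it stood at 1.82, 2.03 and 1.61 CPM with water and 5.83, 4.35 and 3.61 with succinate, without overlap (log2 fold change 1.35, SE 0.35, unadjusted p = 0.0049, adjusted p = 0.528 with edgeR and 0.0417 with DESeq2). The *Ptk6*-/- females stood at 2.15, 3.53 and 1.24 CPM with water and 2.84, 6.51 and 4.73 with succinate, which overlapped. Male levels were 1.86 to 4.99 CPM with water and 0 to 4.89 with succinate. The 0 counts fell in *Ptk6*-/- male succinate replicate 1, whose depth allows up to 0.823 CPM (3 counts), and the averaged log2 fold change was 0.61 (SE 0.29, adjusted p = 0.310).

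*Vegfa*, the main growth factor of vessels, had an averaged log2 fold change of −0.21 (SE 0.25, adjusted p = 0.721). Its succinate libraries in wild type females stood at 36.7, 273 and 170 CPM, which span the range of all 24 libraries. The log2 fold change was −0.86 (SE 0.41, adjusted p = 0.496) in *Ptk6*-/- females and 0.57 (SE 0.62) in wild type females, and the latter became −0.05 without the library with heart transcripts.

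*Bnip3*, the mitophagy receptor, ran from 1.92 to 65.2 CPM. In wild type females it stood at 8.47, 10.9 and 11.7 CPM with water and 17.9, 65.2 and 7.00 with succinate. The highest value again belongs to the library with heart transcripts, and without it the averaged log2 fold change went from 0.75 (adjusted p = 0.238) to 0.44 (adjusted p = 0.454). In the other pairs the log2 fold change was 0.84 (SE 0.53) in *Ptk6*-/- females, 0.64 (SE 0.41) in wild type males and −0.01 (SE 0.42) in *Ptk6*-/- males. The groups overlapped in each of these pairs. The level was higher in females than in males over both genotypes and waters by 1.27 (SE 0.31, unadjusted p = 0.000499), which missed the threshold over all genes (adjusted p = 0.069, edgeR, where 0.35% of all genes were called). Without the library with heart transcripts this difference was 0.95 (adjusted p = 0.132). *Egln3* differed by sex by 0.83 (SE 0.21, adjusted p = 0.085). The summed tuft cell genes of succinate-treated mice were also higher in females (183 to 585 CPM) than in males (63.9 to 182), and those of controls overlapped. The part of cell type markers in these sex differences was not tested.

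*Ndrg1* and *Car9* gave no difference with succinate beyond their spread. *Ndrg1* had an averaged log2 fold change of −0.21 (SE 0.19, adjusted p = 0.614). *Car9* had one of −0.05 (SE 0.14, adjusted p = 0.896), and its CPM was 27.2 to 49.6 in controls and 17.8 to 46.6 with succinate. Its 95% interval, from a normal approximation, ran from −0.32 to 0.21 on the log2 scale. By pair, *Ndrg1* stood at −0.66 (SE 0.35) in wild type females, −0.52 (SE 0.38) in *Ptk6*-/- males, 0.20 (SE 0.36) in *Ptk6*-/- females and 0.13 (SE 0.23) in wild type males. *Car9* stood at −0.35 (SE 0.26), −0.11 (SE 0.29), 0.21 (SE 0.29) and 0.04 (SE 0.20) in the same order. The groups of both genes overlapped in each pair.

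Both alpha subunits differed with genotype in control males. *Hif1a* lies at chromosome 12, 73948149 to 73994304, and stood at 22.3, 24.8 and 20.9 CPM in wild type control males and 54.0, 47.5 and 70.1 in *Ptk6*-/- control males. The genotypes did not overlap, and *Hif1a* was 2.49-fold higher in *Ptk6*-/- (log2 fold change 1.31, SE 0.16, adjusted p = 0.0122, edgeR). *Epas1*, at chromosome 17, 87061128 to 87140838, stood at 33.7, 33.0 and 35.8 CPM in wild type and 54.9, 64.3 and 75.1 in *Ptk6*-/- control males. It was 1.87-fold higher (log2 fold change 0.90, SE 0.14, adjusted p = 0.0173), which passes the adjusted p and not the 2-fold rule. In this comparison 0.957% of all 19218 genes were called and 6.57% passed the adjusted p at any fold change, while 31.4% did not overlap. *Hif1a* and *Epas1* were the 2 members of 10 at an adjusted p under 0.05, and the other 8 had log2 fold changes between −0.54 (*Ankrd37*) and 0.59 (*Adm*). Summed marker levels also did not overlap for 7 Paneth cell genes (6536 to 16715 CPM in *Ptk6*-/- and 18009 to 20264 in wild type control males). The same held for 5 erythrocyte genes (63.5 to 91.3 and 100 to 127) and 15 tuft cell genes (79.8 to 84.9 and 85.8 to 88.1). The part of these in the *Hif1a* and *Epas1* results was not tested.

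The call of *Hif1a* was sensitive to the fit. It was lost without wild type control replicate 3 (log2 fold change 1.23, adjusted p = 0.0566), without *Ptk6*-/- control replicate 3 (1.15, adjusted p = 0.0530) and when all 24 libraries shared 1 estimate of spread (1.33, adjusted p = 0.933). It was also lost with the length offset and replicate block together (1.17, adjusted p = 0.0693) and in the 3 limma fits on FPKM (1.38 to 1.70, adjusted p 0.106 to 0.673). *Epas1* had an adjusted p of 0.0613 to 0.0860 without replicate 2 or 3 of either group. Long genes also counted for more in the *Ptk6*-/- control males. Regressing log2 CPM on the log2 of gene length in each library gave a slope which, less its mean over 24 libraries, was 0.0867 to 0.141 in these 3 libraries and −0.0632 to −0.00795 in wild type control males. With an offset for this slope the log2 fold change was 1.19 (adjusted p = 0.0249) for *Hif1a* and 0.79 (adjusted p = 0.0450) for *Epas1*. The part of the slope in these differences beyond that was not tested.

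In control females *Hif1a* stood at 19.9, 17.8 and 16.0 CPM in wild type and 39.0, 40.4 and 14.2 in *Ptk6*-/- mice, so the genotypes overlapped (log2 fold change 0.85, SE 0.40, adjusted p = 0.469). The low library, *Ptk6*-/- female control replicate 3, also had a length slope of −0.0956, against 0.0721 and 0.116 in the other libraries of its group. Without it the log2 fold change was 1.20 (adjusted p = 0.0203), and the count of all genes called went from 3 to 1912. *Epas1* differed by 0.40 (SE 0.25, adjusted p = 0.568). *Ankrd37* had the smallest p of the 10 here and was lower in *Ptk6*-/- mice, by a log2 fold change of −1.39 (SE 0.47, unadjusted p = 0.0201, adjusted p = 0.391), and its groups overlapped. In this comparison 0.0158% of all genes were called and 18.9% did not overlap.

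With succinate, *Hif1a* had an averaged log2 fold change of 0.01 (SE 0.22) and *Epas1* one of −0.15 (SE 0.17). *Epas1* in *Ptk6*-/- females stood at 38.9, 63.0 and 42.8 CPM with water and 24.2, 25.5 and 27.0 with succinate, without overlap (log2 fold change −0.94, SE 0.27, unadjusted p = 0.00823, adjusted p = 0.381). Among *Ptk6*-/- males it stood at 54.9, 64.3 and 75.1 CPM with water and 34.0, 50.7 and 42.4 with succinate (−0.58, SE 0.21, adjusted p = 0.607). In wild type females the succinate values were 33.2, 123 and 43.1 CPM, and 123 is the library with heart transcripts. The genotypes differed in this response in females by −1.75 (SE 0.57, unadjusted p = 0.00972, adjusted p = 0.753), and by −0.98 without that library.

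**Figure D4:**
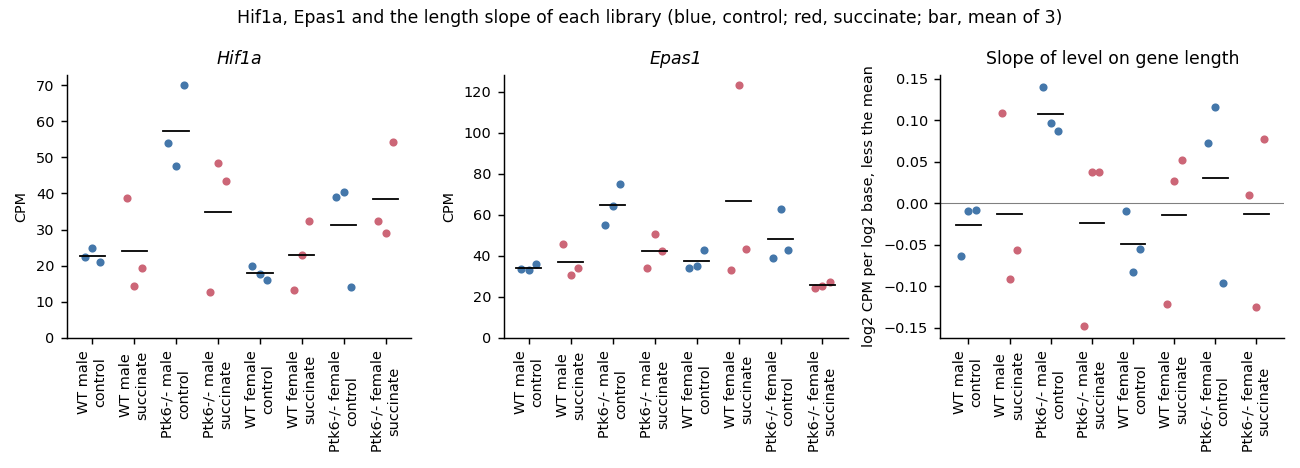
CPM of *Hif1a* and *Epas1* (y axes) and the centred slope on gene length (y axis, right), in 24 libraries by group. Points are mice, bars are means of 3, blue is control and red is succinate. The 3 *Ptk6*-/- control males are high in all 3 panels, with *Hif1a* at 47.5 to 70.1 CPM and slopes of 0.0867 to 0.141.

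Counted together, 1 of the 10 genes was called in the averaged succinate effect (0.747% of all genes) and 4 had an unadjusted p under 0.05 (16.1% of all genes). These 4 were *Egln3*, *Ankrd37*, *Egln1* and *Bnip3*, and each was higher. The median log2 fold change of the 10 was 0.24, against −0.0025 over all genes. Only *Egln3* passed the adjusted p at any fold change, where 1.08% of all genes did. The count of calls was 0 of 10 in each of the 4 sex and genotype pairs with edgeR, and DESeq2 called 2 of 10 in wild type females (258 of 18666 genes in all) and in *Ptk6*-/- females (433 of 19277), and 0 in wild type males (47 of 19089) and *Ptk6*-/- males (39 of 18878). At an unadjusted p under 0.05 there was 1 of 10 in wild type males (*Egln3*, 4.01% of all genes), 1 in *Ptk6*-/- males (*Epas1*, lower, 7.51%), 2 in wild type females (*Egln3* and *Adm*, 7.7%) and 4 in *Ptk6*-/- females (*Egln3*, *Ankrd37* and *Egln1* higher and *Epas1* lower, 10.5%).

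Other genes of the pathway were counted from 6 lists, written from general knowledge with earlier results of these data known. Of 20 glycolytic HIF targets, 14 had a higher averaged level with succinate and 6 a lower one (median log2 fold change 0.36), and 11 had an unadjusted p under 0.05, against 16.1% of all genes. *Slc16a3*, the lactate exporter, was the 1 gene of this list that was called (log2 fold change 1.12, SE 0.27, adjusted p = 0.0448). It stayed called in 5 of 24 fits without 1 library (adjusted p 0.00445 to 0.108) and in 5 of 13 other fits. The call was lost with no filter on low counts, with the replicate block (with or without the length offset) and in the 3 limma fits on FPKM. It was also lost without both libraries high in 18S RNA and without all 3 libraries that stood apart. *Pfkl*, a phosphofructokinase subunit, stood at 0.80 (adjusted p = 0.0560), and the lowest p among those lower was that of *Pfkfb3*, which controls phosphofructokinase (−0.67, adjusted p = 0.237). *Pfkfb3* was however called as higher in *Ptk6*-/- control males (1.69, SE 0.20, adjusted p = 0.0105), beside *Hk2*, a hexokinase, at 0.94 (adjusted p = 0.0471). The *Pfkfb3* call was lost without wild type control replicate 3 (1.55, adjusted p = 0.0541) and without *Ptk6*-/- control replicate 3 (1.63, adjusted p = 0.0530). It was also lost in 1 fit of all 24 libraries (1.70, adjusted p = 0.933), with the length offset and replicate block together (1.51, adjusted p = 0.0693) and in limma on log2(FPKM + 1) with or without a filter (1.61, adjusted p = 0.215 and 0.659). In that comparison 12 of the 20 glycolytic genes were lower (median −0.15).

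Of 26 other HIF targets, 15 were higher and 11 lower with succinate (median 0.28), 10 had an unadjusted p under 0.05 (16.1% of all genes), and edgeR called 2, in opposite directions (DESeq2 and voom added *Ak4*). *Edn1*, encoding the vasoconstrictor endothelin, was 1.39 higher (SE 0.26, adjusted p = 0.00793). Its CPM in *Ptk6*-/- females was 2.16 ± 1.22 (SD, n = 3) with water and 8.84 ± 2.48 with succinate, and in *Ptk6*-/- males 1.85 ± 0.199 and 2.15 ± 1.47. *Angptl4*, an inhibitor of lipoprotein lipase that HIF and fatty acids induce, fell by 1.13 on the log2 scale (SE 0.26, adjusted p = 0.0379), from 103 ± 19.8 CPM to 24.1 ± 15.4 in wild type females, and stood at 39.0 ± 5.78 and 34.6 ± 12.5 in *Ptk6*-/- males. The *Edn1* call held in all 24 fits without 1 library, though it was lost in the 3 limma fits on FPKM, in log2(FPKM + 0.1) at an adjusted p = 0.0593 and in log2(FPKM + 1) at a log2 fold change of 0.77. The call of *Angptl4* held in 6 of the 24 (adjusted p 0.00531 to 0.0858) and in 6 of 13 other fits. It was lost with no filter on low counts and with the replicate block, with or without the length offset. Limma on log2(FPKM + 0.1) and on log2(FPKM + 1) with no filter also lost it. So did the fits without both libraries high in 18S RNA and without all 3 libraries that stood apart. *P4ha1*, a collagen prolyl hydroxylase, passed the adjusted p under the 2-fold rule (0.87, adjusted p = 0.0243), and *Car12*, a carbonic anhydrase, stood at −0.60 (adjusted p = 0.221). By genotype in control males edgeR, DESeq2 and voom each called 0 of the 26, and by edgeR 6 of the 26 had an unadjusted p under 0.05, against 24.9% of all genes. The smallest p there were those of *Loxl2* (0.64, adjusted p = 0.0547) and *Car12* (0.51, adjusted p = 0.0765) among those higher, and *Fam162a* (−0.48, adjusted p = 0.168) and *Higd1a* (−0.43, adjusted p = 0.277) among those lower.

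Of 13 HIF targets of the intestinal epithelium, 8 were lower and 5 higher with succinate (median −0.30), and 5 had an unadjusted p under 0.05 (16.1% of all genes). *Ckb*, the cytosolic creatine kinase of the epithelium, was the 1 that edgeR and DESeq2 called and was higher (1.33, SE 0.29, adjusted p = 0.0280). It stayed called in 9 of 24 fits without 1 library (adjusted p 0.00213 to 0.0698) and in 8 of 13 other fits. The call was lost in the 3 limma fits on FPKM, without both libraries high in 18S RNA and without all 3 libraries that stood apart. *Slc40a1*, the iron exporter, stood at −0.64 (adjusted p = 0.0503), *Abcb1a*, a drug efflux pump, at −0.85 (adjusted p = 0.168, and called by voom with *Abcb1b*) and *Nt5e*, which makes adenosine, at 0.31 (adjusted p = 0.594). With genotype in control males 9 of the 13 were higher (median 0.53). *Abcb1a* (0.67, adjusted p = 0.0265) and *Abcb1b* (0.98, adjusted p = 0.0326) passed the adjusted p as higher and *Tff3*, a goblet cell peptide, as lower (−0.78, adjusted p = 0.0454). All 3 were under 2-fold in the main edgeR fit. DESeq2 and voom called *Abcb1b*, as did edgeR with no filter on low counts and edgeR without wild type control replicate 1. Voom also called *Muc3*, and *Adora2b* stood at −0.51 (adjusted p = 0.399).

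Of 13 genes of the HIF machinery, edgeR and DESeq2 called 0 in either comparison, and voom 0 with succinate and 2 (*Ep300* and *Hif3a*) with genotype in control males. By edgeR 2 had an unadjusted p under 0.05 with succinate (16.1% of all genes) and 6 with genotype in control males (24.9% of all genes). With succinate *Vhl* stood at 0.32 (adjusted p = 0.309), its partner *Elob* at 0.81 (adjusted p = 0.312), and the coactivators *Crebbp* and *Ep300* at −0.31 (adjusted p = 0.236) and −0.34 (adjusted p = 0.419). With genotype in control males *Ep300* was 0.83 higher (adjusted p = 0.0314, and called at 1.06 without wild type control replicate 1, adjusted p = 0.0105) and *Elob* fell by 0.62 (adjusted p = 0.0476). *Arnt*, the partner subunit of both alpha subunits, stood at 0.45 (adjusted p = 0.0645) and *Egln2* at −0.37 (adjusted p = 0.0921).

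Of 12 genes of signalling by the secreted factors, 12 were tested with succinate and 11 with genotype in control males, and edgeR, DESeq2 and voom each called 0 in either comparison. By edgeR 3 of 12 with succinate (16.1% of all genes) and 5 of 11 with genotype (24.9% of all genes) had an unadjusted p under 0.05. With succinate *Ramp2*, part of the adrenomedullin receptor, stood at 0.63 (adjusted p = 0.211), the growth factors *Pgf* at 0.85 (adjusted p = 0.225) and *Vegfc* at −0.35 (adjusted p = 0.395), and the receptor *Kdr* at −0.19 (adjusted p = 0.742). In *Ptk6*-/- control males the receptor *Flt1* was higher at 0.71 (adjusted p = 0.0435) under 2-fold, and *Nrp2* stood at 0.45 (adjusted p = 0.136), *Vegfb* at −0.55 (adjusted p = 0.123) and *Ramp3* at −0.81 (adjusted p = 0.247).

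Of 15 genes of succinate metabolism and sensing, 14 were tested with succinate and edgeR called 1, voom 2 and DESeq2 3, where over all genes they called 162, 799 and 337. *Sucnr1*, the succinate receptor, was 1.75 higher (SE 0.38, adjusted p = 0.0252) at low levels, from 0.579 ± 0.352 CPM to 3.31 ± 1.62 in *Ptk6*-/- females (SD, n = 3), from 0.512 to 2.50 in wild type females and from 0.270 to 1.10 in wild type males, against 0.302 and 0.309 in *Ptk6*-/- males, and stayed called in 18 of 24 fits without 1 library (adjusted p 0.00948 to 0.0679). *Sdhaf1*, an assembly factor of succinate dehydrogenase, stood at 1.03 (adjusted p = 0.0512 with edgeR and 0.0035 with DESeq2, which called it), the transporter *Slc13a2* at −1.34 (adjusted p = 0.166, and called by DESeq2, 0.0255, and voom, 0.00447) and *Suclg2* at −0.25 (adjusted p = 0.410). *Sdhaf1* was also called by edgeR with size factors from DESeq2, with at least 10 counts in every library and with the length offset. Without 1 library edgeR called *Sdhaf1* in 4 of 24 fits and *Slc13a2* in 2. With genotype in control males *Sdhaf4*, another assembly factor, fell by 1.25 (SE 0.32, adjusted p = 0.0496) and was called, though in 0 of 6 fits without 1 library (adjusted p 0.0618 to 0.132), and *Sdhb*, a subunit of the enzyme, fell by 0.57 (adjusted p = 0.0469). *Suclg2* stood there at 0.29 (adjusted p = 0.382) and *Slc13a2* at 0.07 (adjusted p = 0.782).

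**Figure D5:**
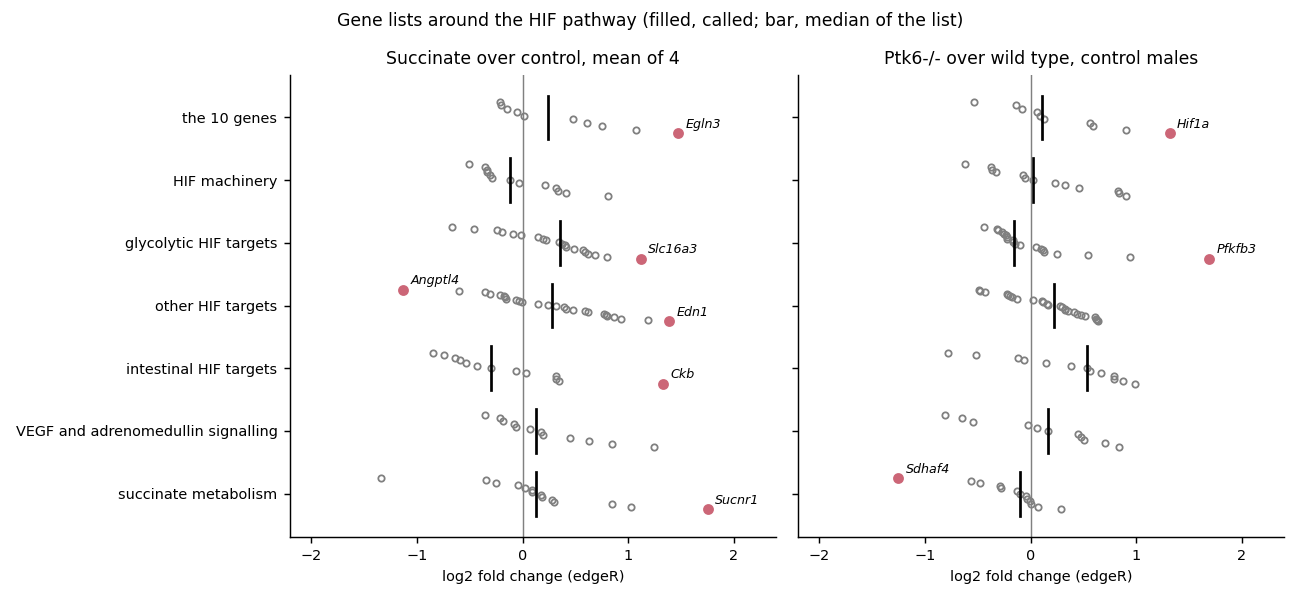
Log2 fold change (x axis, edgeR) of the 10 genes and of 6 lists (y axis) for succinate over control averaged over the 4 pairs (left) and *Ptk6*-/- over wild type in control males (right). Each point is a gene, filled points are called and named, and bars are list medians, which run from −0.30 to 0.36 on the left.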

How the data were processed

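Stranded poly(A) libraries of 24 mice were compared. The count values are as the authors deposited them, with no normalization, and the deposited FPKM values were computed by the authors with StringTie as fragments per transcript length and library size. The submitters' processing notes name the GRCm39 build, and the program that counted reads is not given in the sources used here. FPKM values scale with the library total, so much 18S RNA lowers them.

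The analysis used R 4.3.3 with edgeR 4.0.16, limma 3.58.1 and DESeq2 1.42.0. Genes were kept where 3 or more libraries of a fit held 10 or more counts, which left 18872 to 21694 genes, scaled by TMM and tested by edgeR's quasi-likelihood test with Benjamini-Hochberg adjustment over all of them. Averaged and sex comparisons used 1 fit of 24 libraries, the interactions with genotype 12 and the comparisons of 2 groups 6. The study's methods name DESeq2 for groups, which was an alternative here. Further alternatives were size factors from DESeq2, other filters on low counts, a replicate block, an offset for gene length, voom, limma on log2(FPKM + 1) or log2(FPKM + 0.1), 1 fit for all pairs, no fold change threshold, and leaving out libraries. The script was tested on simulated data.

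The 10 genes, the lists and the tests were chosen with earlier results of these data known. Named were the 10 genes in every comparison, every list gene called in a comparison, and up to 2 list genes in each direction with the smallest p for the averaged succinate effect and for genotype in control males. *Hif3a*, *Ak4*, *Muc3* and *Abcb1b* with succinate were named after their values were seen. *Aldoa* has 2 identifiers, and the one with more counts was used. Mice of a group came from separate animals, and SEs and intervals of fold changes include the spread between mice, while the floor of 3 counts covers counting error only.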

Additional observations from a re-analysis of the deposited data

How the results depend on the processing

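The number of the 10 genes called in the averaged succinate effect was 1, and it was 2 in DESeq2 and in voom with sample quality weights (*Ankrd37* was added), 0 in limma on log2(FPKM + 0.1) and on log2(FPKM + 1) with no filter, and 1 to 2 when each library was left out in turn (2 without wild type male succinate replicate 1 or wild type female succinate replicate 3). In wild type males it was 0, 2 in voom, and 0 to 2 over the left-out libraries (2 without succinate replicate 1, *Egln3* and *Ankrd37*), in wild type females 0, 2 in DESeq2, 1 in voom, and 0 to 1 over the left-out libraries (1 without succinate replicate 3), and in *Ptk6*-/- females 0, 2 in DESeq2, and 1 each in 1 fit of all 24 libraries, with no filter on low counts, in voom, and in limma on log2(FPKM + 1) and log2(FPKM + 0.1). For genotype in control males it was 1, 2 with no fold change threshold and in voom, 0 in 1 fit of all 24 libraries, with the length offset and replicate block together and in all 3 limma fits on FPKM, and 0 to 2 over the left-out libraries (0 without wild type or *Ptk6*-/- control replicate 3, 2 without *Ptk6*-/- control replicate 1). In control females it was 0, 1 in voom, and 0 to 1 over the left-out libraries (1 without *Ptk6*-/- control replicate 3, *Hif1a*). The difference of the succinate response between sexes gave 0, and 1 in DESeq2. The sex effect gave 0, 1 in DESeq2, and 0 to 1 over the left-out libraries (*Bnip3*, 1.39, adjusted p = 0.00778, without wild type female succinate replicate 3). It also gave 1 with the replicate block (*Bnip3*, 1.28, adjusted p = 0.0364) and with the length offset and replicate block together (1.27, adjusted p = 0.0338). With the replicate block *Egln3* stood at 1.42 (adjusted p = 0.000884) and *Hif1a* in control males at 1.30 (adjusted p = 0.0348). No pairing by replicate number was seen. Same-numbered libraries had correlations of −0.356 to 0.171, and 1 of 18 correlated best with its own number. These are correlations of deviations from means of 3 libraries, so they cannot exclude a pairing. Counts over all genes moved more. Without leaving out a library they ran from 38 to 799 in the averaged succinate effect (162 in edgeR), 0 to 207 in its difference by sex (16), 27 to 323 in the sex effect (76), 1 to 584 for genotype in control males (184), 0 to 1988 in control females (3), and for succinate 0 to 1532 in wild type males (0), 0 to 39 in *Ptk6*-/- males (0), 0 to 258 in wild type females (0) and 0 to 433 in *Ptk6*-/- females (10), with the highest counts in DESeq2 or voom. Over the left-out libraries they ran from 85 to 528 in the averaged succinate effect, 0 to 170 in its difference by sex and 42 to 422 in the sex effect (each highest without wild type female succinate replicate 3), from 9 to 230 for genotype in control males (lowest without wild type control replicate 3), and reached 1114 in wild type males, 674 in wild type females and 1912 for genotype in control females, each without the library named above. No called value of the 10 genes or of the named list genes changed sign. *Adm* and *Bnip3* have no value where every library had to hold 10 counts and one fell below. The fits without all 3 libraries that stood apart were chosen after seeing the data. The cause of these differences was not tested. Depth limits *Adm* and *Bnip3* most, at 0 and 7 counts in the library with the lowest total.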

Other observations

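The gene whose CPM followed each of the 10 genes most closely over the 24 libraries was looked up by Spearman's rho among 21694 genes, as a description with no test, since the libraries share groups, depth and composition. For *Egln3* it was *Cd55*, which encodes an inhibitor of complement (rho 0.93), for *Hif1a* it was *Kif5b*, a kinesin heavy chain (0.93), and for *Bnip3* it was *Ube2f*, a neddylation enzyme (0.96). For the others it was *Ablim1* for *Epas1* (0.86), *Manba* for *Egln1* (0.90), *Myzap* for *Vegfa* (0.88), *Bag3* for *Adm* (0.85), *Akr1c14* for *Ndrg1* (0.83), *Ubxn8* for *Car9* (0.92) and *Mtfp1* for *Ankrd37* (0.91).

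Among the 10 genes themselves, the closest pair was *Egln1* with *Egln3* (rho 0.80, 24 libraries), followed by *Epas1* with *Vegfa* (0.76), *Egln3* with *Bnip3* (0.71) and *Bnip3* with *Ankrd37* (0.67). *Egln3* had a rho of 0.65 with *Adm* and 0.61 with *Ankrd37*.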
